A study of Mus musculus with 8 samples.

Results

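Lysosome and autophagy genes were examined in intestinal epithelial cells of lactating mice with and without the receptor RANK. The set was a named list of 42 genes among the 54532 genes of the count table, matched by symbol to their Ensembl identifiers with GENCODE M21. It held 21 soluble lysosomal proteins (7 glycosidases, 9 proteases and 5 lipid hydrolases or lipid-handling proteins), 6 lysosomal membrane proteins, the transcription factor Tfeb and 14 autophagy factors. Of the 42 genes, 41 had enough counts to be tested. Gla, the α-galactosidase of the lysosome, did not, at 2.92 ± 1.03 CPM in WT against 4.64 ± 1.5 CPM in Rank-knockout (± is the SD over n = 4 mice for every CPM value, and the SE for every log2 value), where CPM is the count of a gene relative to the size of its library, scaled by the TMM method.

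Epithelial cells from the intestine of 4 WT and 4 Rank-knockout dams were profiled at lactation day 5, with 1 library per mouse and no other treatment. Rank-knockout mice carried floxed Rank alleles (the gene Tnfrsf11a) deleted by Cre under the Villin promoter, so that the deletion was aimed at the intestinal epithelium, while RANK in other tissues was left in place. Per the study's methods, WT controls were female littermates on the same C57BL/6J background, and dams of each genotype were mated with wild-type males. For mice across all experiments of the study the stated ages are 3 to 25 weeks, unless otherwise stated, with age-matched littermates as controls. The ages of these dams and the segment of intestine are not given in the sources used here. The p values set the difference between the genotypes against the spread among the 4 mice of each.

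Lysosomes are acidic organelles in which hydrolases break down proteins, sugars and lipids that arrive from endocytosis or from autophagy. In autophagy a membrane grows around cytoplasmic cargo, is decorated with lipid-bound ATG8 proteins, and closes before it fuses with a lysosome. Absorptive cells of the intestine take up dietary lipid and luminal material and use lysosomes to process part of it. TFEB is a transcription factor that binds a palindromic motif, the CLEAR element, near the start of many lysosomal and autophagy genes.

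Libraries held 1530781 to 4335653 counts in WT and 2103716 to 4321154 in Rank-knockout. Among all 9855 tested genes, 14.6% were lower in Rank-knockout, 15.8% were higher and 30.4% passed in either direction, by edgeR's quasi-likelihood test with Benjamini-Hochberg adjustment over all tested genes and a threshold of 0.05. Epithelial markers were present, with 8 markers summing to 9864 to 10873 CPM in WT against 7783 to 9693 CPM in Rank-knockout. Of these 8, Epcam, Krt20 and Vil1 were lower, Krt18 and Krt19 were higher and 3 did not pass the threshold. All 12 villus enterocyte markers were lower in Rank-knockout, with summed levels of 21383 to 29830 CPM in WT against 9874 to 13294 CPM in Rank-knockout. All 12 replication and cell cycle markers were higher, with 413 to 641 CPM in WT against 961 to 1635 CPM in Rank-knockout. Of 6 goblet cell markers 4 were lower and 1 was higher (sums of 12914 to 17207 CPM in WT and 6971 to 9650 CPM in Rank-knockout), and of 6 Paneth cell markers 3 were higher (2091 to 4464 CPM in WT and 2896 to 9329 CPM in Rank-knockout). The part of these markers in the results below was not tested. In bulk samples, fewer cells of a type and less RNA per cell cannot be told apart.

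The targeted transcript was still counted in Rank-knockout. Counts of Tnfrsf11a were 113, 196, 61 and 111 in the WT libraries against 128, 112, 79 and 179 in the Rank-knockout libraries. Its log2 fold change was -0.67 ± 0.22 (SE, with adjusted p = 0.0321 by edgeR), and in CPM the genotypes overlapped. Reads of the 3′ end can come from exons outside the deletion, so these counts are a weak check of the labels.

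Of the 41 tested lysosome and autophagy genes, 10 were lower in Rank-knockout and 0 were higher. The 10 were 24.4% of those tested, beside 14.6% of all genes. They were the acid lipase Lipa, the membrane proteins Lamp1, Npc1 and Mcoln1, the proteases Ctsd, Ctsb and Tpp1, the sialidase Neu1, the cargo receptor Sqstm1 and the ATG8 protein Map1lc3a. None of the 41 was called higher by DESeq2 or limma-voom either, and 1 was higher by edgeR at an unadjusted p under 0.05. The median log2 fold change of the 41 genes was -0.20, beside 0.02 for all tested genes, and 32 of them had a negative value.

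How many genes carried a negative value depended on the scaling of the libraries. With library totals in place of TMM, the median of all genes shifted up by 0.20, and 20 of the 41 genes had negative values instead of 32. On that scale 6 genes were still lower (Lipa, Lamp1, Sqstm1, Map1lc3a, Npc1 and Ctsd) and 4 were higher (Gusb, Ctsh, Scarb2 and Atg16l1). The counts over all tested genes went from 1555 higher and 1438 lower with TMM to 2575 higher (26.1%) and 857 lower (8.70%) with library totals. A change of scaling moves every gene by about the same amount, so the distance between the median of these genes and that of all genes, -0.23 with TMM, is nearly fixed under it and is no check of the calls.

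Another description of the separation is whether the 4 Rank-knockout libraries overlapped the 4 WT libraries. In 13 of the 41 genes (31.7%) every Rank-knockout library was below every WT library, beside 14.3% of all tested genes and 28.8% that separated in either direction. These were all of the called genes except Mcoln1, together with Hexa, Becn1, Atg5 and Gabarap, for which adjusted p was above the threshold. In none of the 41 was every Rank-knockout library above every WT library. With library totals, 6 genes were separated in the lower direction (Lipa, Lamp1, Sqstm1, Map1lc3a, Npc1 and Ctsd) and 3 in the higher (Scarb2, Atg7 and Atg16l1), beside 8.23% and 24.3% of all tested genes.

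**Figure D1:**
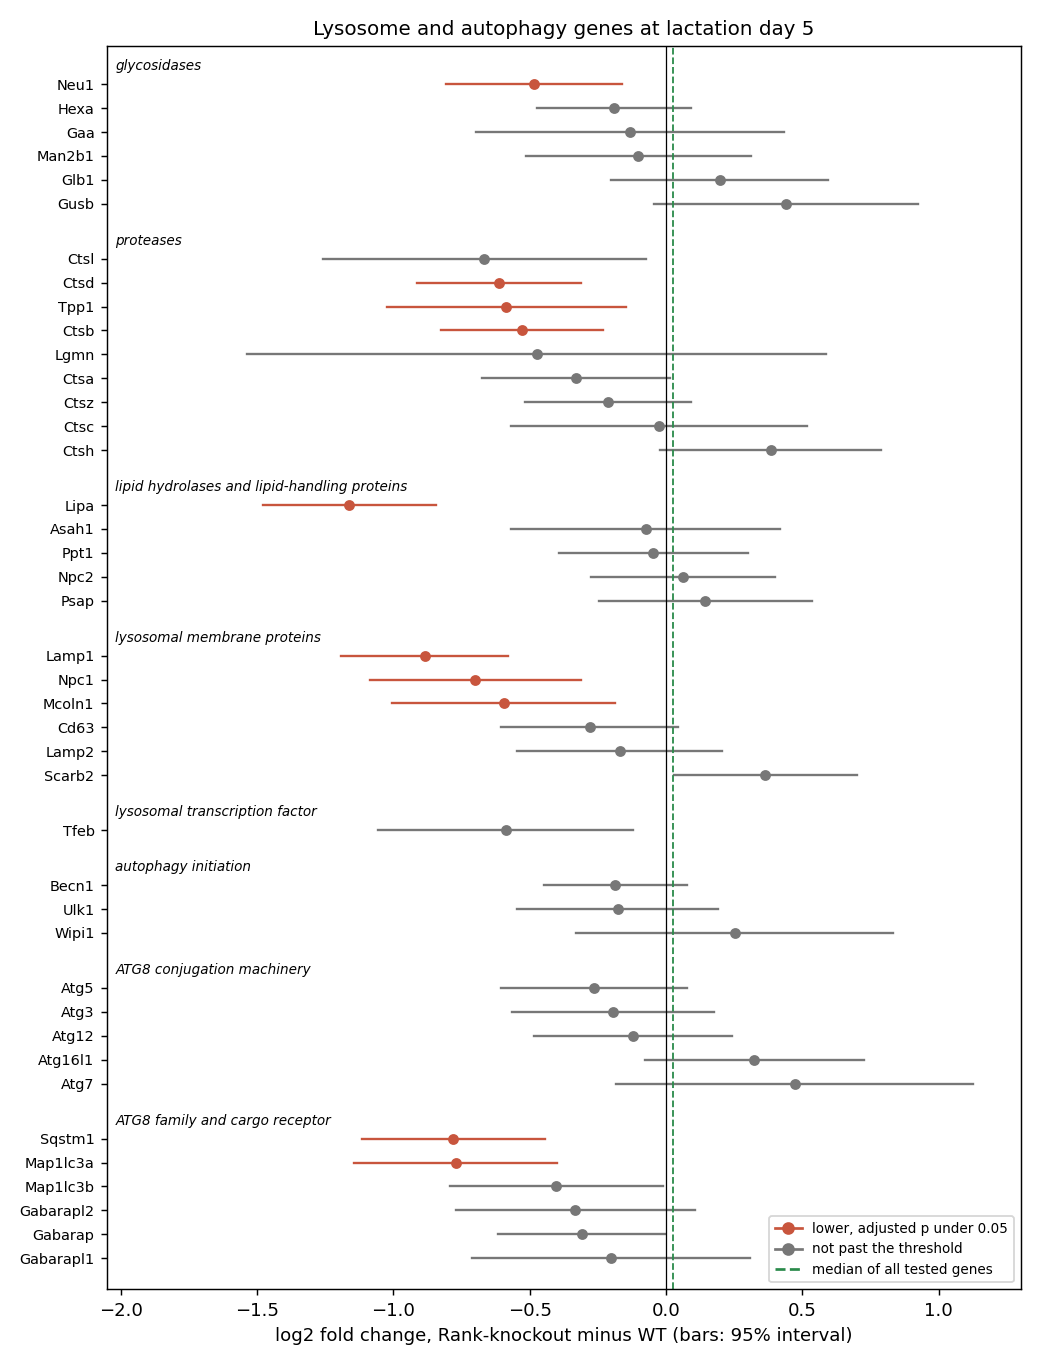
Log2 fold change (Rank-knockout minus WT, x axis) with its 95% interval for each of the 41 tested genes, in role groups, with the median of all tested genes at 0.02 as a dashed line. The 10 genes past the threshold, in red, run from -1.16 for Lipa to -0.49 for Neu1, and 9 genes lie above 0, none of them past it.

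Promoter sequences are shown here because they hold the letters that TFEB is known to bind, and because Lamp1, Ctsd and Mcoln1 were among the genes that fell. RefSeq promoter windows (GRCm38.p6, 250 bases before to 50 after each annotated start) were found for 34 of the 42 genes, and not for Asah1, Atg12, Atg16l1, Becn1, Ctsb, Ctsh, Map1lc3a and Npc1. Windows were searched on both strands for TCACGTG, whose reverse complement reads CACGTGA. It lies within the palindrome TCACGTGA and itself holds the shorter CACGTG. In the 30-base stretches below, read 5′ to 3′ on the gene's strand, capitals mark every such motif. Shown are the genes that fell and hold the motif, and the genes that hold the palindrome.
Lamp1 (chr8:13159096-13159125, plus strand): ataTCACGTGgtccagcgccCACGTGAtgc
Lamp1 (chr8:13159127-13159156, plus strand): gactggCACGTGAccacaTCACGTGcggaa
Ctsd (chr7:142388048-142388077, minus strand): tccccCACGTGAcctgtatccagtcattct
Ctsd (chr7:142387908-142387937, minus strand): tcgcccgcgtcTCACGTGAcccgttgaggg
Mcoln1 (chr8:3500435-3500464, plus strand): gggtcgcgcttgTCACGTGttcagttcagg
Mcoln1 (chr8:3500462-3500491, plus strand): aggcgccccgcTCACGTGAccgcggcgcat
Ctsa (chr2:164833757-164833786, plus strand): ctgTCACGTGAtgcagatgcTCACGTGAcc
Gla (chrX:134601215-134601244, minus strand): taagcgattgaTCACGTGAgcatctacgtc
Gla (chrX:134601182-134601211, minus strand): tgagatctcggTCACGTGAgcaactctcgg
Atg3 (chr16:45158722-45158751, plus strand): ggcctccttttgTCACGTGtcctgggagag
Atg3 (chr16:45158746-45158775, plus strand): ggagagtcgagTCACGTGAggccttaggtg

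In Lamp1 the first motif of the upper stretch began 62 bases before the start annotated by RefSeq and that of the lower stretch 28 bases before it. In Ctsd the motifs began 245 and 99 bases before the start, and in Mcoln1 72 and 46 bases before it. Ctsa carried the palindrome 13 bases before its start and again just after it, and Gla carried it 228 and 195 bases before. Atg3 carried the palindrome 72 bases before its start and a TCACGTG 95 bases before. TCACGTG was found in 10 of the 34 genes with a window (29.4%): Lamp1, Ctsd, Mcoln1, Ctsa, Gla, Gaa, Glb1, Lgmn, Atg3 and Atg7. The motif occurred in 4.29% of the 27025 genes with a window and in 7.42% of the 7680 tested genes with one. Among the genes that fell it was present in 3 of 7, and among those that did not fall or were not tested in 7 of 27 (25.9%). The palindrome TCACGTGA was present in 5 of the 34 genes (Ctsd, Mcoln1, Ctsa, Gla and Atg3), beside 1.12% of all genes with a window and 2.32% of the tested ones. Its longer form, with G before it and C after it, was present in 0 of the 34 genes, beside 0.872% of the tested genes with a window. Lipa and Sqstm1, with the 1st and 3rd lowest log2 fold changes among the 41 genes, had no CACGTG in their windows. A match describes these letters and is not a measured binding site.

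Among the lysosomal membrane proteins, Lamp1, Npc1 and Mcoln1 fell and the other 3 did not pass the threshold, beside 14.6% of all tested genes lower. With library totals 2 were lower and 1 higher. The median log2 fold change of the 6 was -0.44, and their summed level was 4244 to 4994 CPM in WT against 2772 to 3779 CPM in Rank-knockout. Lamp1 (ENSMUSG00000031447, GRCm38 chromosome 8, 13159161 to 13175338, plus strand) encodes an abundant glycoprotein of the lysosomal membrane. It was at 1289, 1676, 1392 and 1357 CPM in WT replicates 1 to 4 and at 675, 822, 835 and 762 CPM in Rank-knockout replicates 1 to 4. The lowest WT library was 1.54 times the highest Rank-knockout library. The mean fell from 1428 ± 170 to 773 ± 73.1 CPM, a log2 fold change of -0.89 ± 0.14 (SE, with adjusted p = 0.000582 by edgeR), or 1.85-fold lower.

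Npc1 (ENSMUSG00000024413, GRCm38 chromosome 18, 12189692 to 12236400, minus strand) encodes the membrane protein that exports cholesterol from lysosomes. WT replicates 1 to 4 had 41.8, 43.3, 36.2 and 59.2 CPM of Npc1, and Rank-knockout replicates 25, 29.3, 29.7 and 27.4 CPM. The Rank-knockout libraries lay within a narrow range below all WT libraries, of which WT replicate 4 was the highest. Npc1 fell by 0.70 ± 0.18 in log2 units (adjusted p = 0.00905 by edgeR). Mcoln1 (ENSMUSG00000004567, GRCm38 chromosome 8, 3500457 to 3515232, plus strand) encodes a calcium channel of the lysosomal membrane. Its levels were 53.4, 47.6, 34.8 and 45.3 CPM in WT against 22.9, 37.1, 28.3 and 32.4 CPM in Rank-knockout. Here the genotypes overlapped, since Rank-knockout replicate 2 was above WT replicate 3. Mcoln1 fell by 0.60 ± 0.19 in log2 units (adjusted p = 0.0286 by edgeR), a call that was lost when WT replicate 1 or either of Rank-knockout replicates 1 and 3 was left out, and with library totals or totals without the 50 most abundant genes.

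Cd63, Lamp2 and Scarb2 did not pass the threshold. The first, a tetraspanin of late endosomes and lysosomes, was at 2790 ± 237 CPM in WT against 2297 ± 354 CPM in Rank-knockout, with a log2 fold change of -0.28 (95% interval -0.60 to 0.04). Lamp2, which is related to Lamp1, was at 117 ± 28.1 and 103 ± 15.9 CPM, with a log2 fold change of -0.17 (95% interval -0.55 to 0.21). Scarb2, the receptor that carries β-glucocerebrosidase to lysosomes, had a positive value of 0.36 ± 0.16 (adjusted p = 0.0921 by edgeR). Rank-knockout replicate 4 was the highest Scarb2 library at 156 CPM, and the other Rank-knockout libraries had 107 to 114 CPM. As a measure that no scaling changes, the ratio of Lamp1 to Lamp2 counts within a library was 9.14 to 20.04 in WT and 6.09 to 9.19 in Rank-knockout, and the ranges overlapped, since Rank-knockout replicate 3 was above WT replicate 3. This pair was chosen after its values were seen.

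Lipid degradation was represented by 5 genes, of which Lipa fell and 4 did not pass the threshold, a count of 1 in 5 beside 14.6% of all tested genes. Lipa (ENSMUSG00000024781, GRCm38 chromosome 19, 34492318 to 34527474, minus strand) encodes lysosomal acid lipase, which releases cholesterol and fatty acids from lipoprotein lipids. Its levels were 94.5, 98.8, 90.1 and 80.5 CPM in WT replicates 1 to 4 and 38.4, 45.8, 35.5 and 43.2 CPM in the Rank-knockout replicates. All Rank-knockout libraries were far below all WT libraries, the lowest WT library being 1.76 times the highest Rank-knockout library. The log2 fold change was -1.16 ± 0.15 (adjusted p = 0.000165 by edgeR), or 2.24-fold lower, the most negative value of the 41 genes with TMM.

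Lipa, Npc2 and Npc1 act in succession on cholesterol, which LIPA frees, NPC2 binds in the lumen and NPC1 moves across the membrane. Of these, Npc2 did not pass the threshold. It was at 365 ± 70.7 CPM in WT against 382 ± 53.8 CPM in Rank-knockout, with a log2 fold change of 0.06 (95% interval -0.28 to 0.40). Within a library the ratio of Lipa to Npc2 counts was 0.213 to 0.270 in WT and 0.0815 to 0.121 in Rank-knockout, without overlap, a pair also chosen after its values were seen. The remaining genes act on sphingolipids or on lipid-modified proteins. Log2 fold changes were -0.07 for the acid ceramidase Asah1, -0.05 for the palmitoyl-protein thioesterase Ppt1 and 0.14 for Psap, the precursor of the saposins that activate sphingolipid hydrolases. The interval of Psap, at 189 ± 50.4 CPM in WT against 208 ± 29.9 CPM in Rank-knockout, was -0.25 to 0.54.

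**Figure D2:**
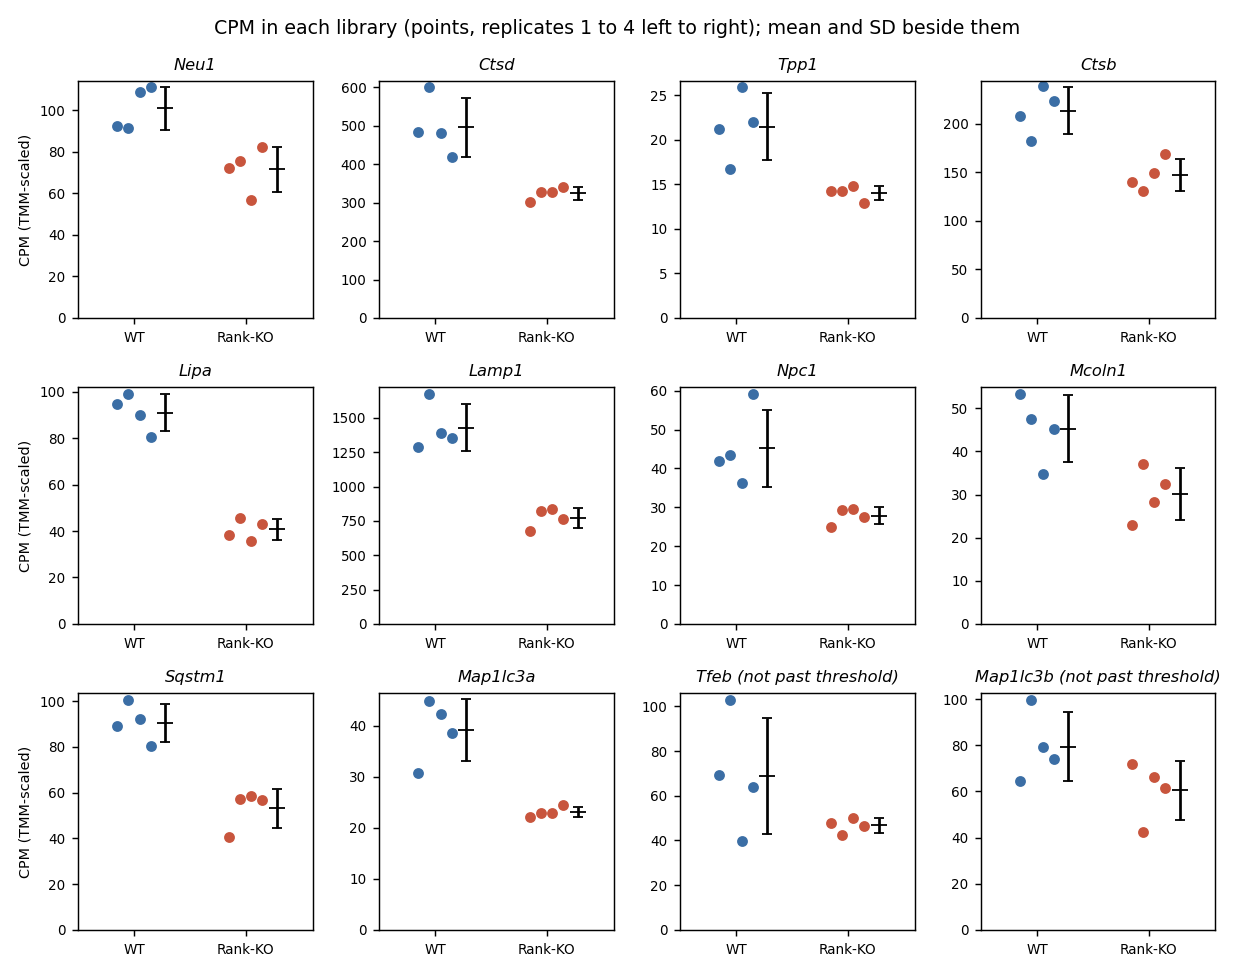
CPM on TMM-scaled library sizes (y axis, from 0) of the 10 genes that fell and of Tfeb and Map1lc3b in each WT and Rank-knockout library, with the mean and SD of each genotype. Rank-knockout points lie below all WT points in 9 panels, and the genotypes overlap for Mcoln1, Tfeb and Map1lc3b.

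Proteases, like the membrane proteins, had 3 called genes, Ctsd, Ctsb and Tpp1 among 9 tested, beside 14.6% of all tested genes, with a median log2 fold change of -0.48. With library totals 1 was lower and 1 higher. Their summed level was 1373 to 1603 CPM in WT against 995 to 1235 CPM in Rank-knockout. Ctsd (ENSMUSG00000007891, GRCm38 chromosome 7, 142375911 to 142388038, minus strand) encodes the main aspartic protease of the lysosome, and the gene model Gm49369 overlaps it on the same strand. In WT it was at 484, 602, 480 and 419 CPM and in Rank-knockout at 301, 327, 329 and 341 CPM. Rank-knockout libraries were close to each other and below every WT library. Ctsd fell by 0.61 ± 0.14 in log2 units (adjusted p = 0.00463 by edgeR).

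Ctsb (ENSMUSG00000021939, GRCm38 chromosome 14, 63122462 to 63145923, plus strand) encodes a cysteine protease. Its WT libraries had 208, 182, 238 and 224 CPM and its Rank-knockout libraries 140, 131, 149 and 169 CPM. The gap was narrow, with the lowest WT library 1.08 times the highest Rank-knockout library. Ctsb fell by 0.53 ± 0.14 in log2 units (adjusted p = 0.00987 by edgeR). Tpp1 (ENSMUSG00000030894, GRCm38 chromosome 7, 105744811 to 105752235, minus strand) encodes a peptidase that removes tripeptides from protein ends. It was at 21.2, 16.7, 26.0 and 22.0 CPM in WT against 14.2, 14.3, 14.8 and 12.9 CPM in Rank-knockout, again without overlap. Its log2 fold change was -0.59 ± 0.21 (adjusted p = 0.0419 by edgeR), and the call was lost in 13 of 17 alternatives, including 7 of the 8 that left out 1 library and those with DESeq2 and limma-voom.

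Of the proteases that did not pass, Ctsl had a value close to that of Ctsd but a wider spread. This cysteine protease was at 21.9, 12.7, 32.1 and 26.0 CPM in WT against 16.1, 13.9, 8.99 and 16.1 CPM in Rank-knockout, so that WT replicate 2 lay among the Rank-knockout libraries. Its log2 fold change was -0.67 ± 0.28 (adjusted p = 0.0813 by edgeR), and without WT replicate 2 it was -0.93 and past the threshold. Ctsa, a carboxypeptidase that also protects NEU1 and β-galactosidase, was at 386 ± 61.7 CPM in WT against 307 ± 56.2 CPM in Rank-knockout, with a log2 fold change of -0.33 (95% interval -0.68 to 0.01). Ctsz, another carboxypeptidase, had -0.21 and Ctsc, which activates other proteases, had -0.03. Lgmn, an asparaginyl endopeptidase that processes cathepsins, had -0.48 with an interval of -1.54 to 0.59. Ctsh, an aminopeptidase, was the only protease with a positive value with TMM, at 44.6 ± 5.93 CPM in WT against 58.4 ± 13.5 CPM in Rank-knockout (log2 fold change 0.38 ± 0.19, adjusted p = 0.139 by edgeR). It passed the threshold without Rank-knockout replicate 1, where Ctsh was 39.3 CPM against 58.9 to 70.2 CPM in the other Rank-knockout libraries.

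Of the 6 tested glycosidases 1 fell, close to the 14.6% of all tested genes, with a median log2 fold change of -0.12 and negative values in 4 with TMM and in 1 with library totals. Neu1 (ENSMUSG00000007038, GRCm38 chromosome 17, 34931253 to 34935953, plus strand) encodes the lysosomal sialidase. It was at 92.5, 91.5, 109 and 111 CPM in WT against 72.4, 75.4, 56.7 and 82.2 CPM in Rank-knockout, with all Rank-knockout libraries below all WT libraries. Neu1 fell by 0.49 ± 0.15 in log2 units (adjusted p = 0.0249 by edgeR). The call was lost when WT replicate 3, WT replicate 4 or Rank-knockout replicate 3 was left out, with library totals, with totals without the 50 most abundant genes, and with no filter on low counts.

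Hexa, the α subunit of β-hexosaminidase, ranged from 154 to 159 CPM in WT and from 116 to 150 CPM in Rank-knockout. These ranges did not overlap, but the log2 fold change of -0.19 ± 0.13 did not pass (adjusted p = 0.292 by edgeR). Gusb, the β-glucuronidase, had a positive value of 0.44 ± 0.23 (adjusted p = 0.155 by edgeR), at 23.2 ± 7.62 CPM in WT against 30.9 ± 5.44 CPM in Rank-knockout. Glb1, the lysosomal β-galactosidase, had 0.20, with an interval of -0.20 to 0.60, and part of it is overlapped by Tmppe on the same strand. Gaa, which degrades glycogen, and Man2b1, an α-mannosidase, had -0.13 and -0.10, with intervals that spanned 0.

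Tfeb (ENSMUSG00000023990, GRCm38 chromosome 17, 47737030 to 47792419, plus strand) was just outside the threshold. It was at 69.2, 103, 39.6 and 63.9 CPM in WT replicates 1 to 4 and 48.0, 42.4, 49.9 and 46.7 CPM in the Rank-knockout replicates. WT replicate 3 was the lowest of all 8 libraries and WT replicate 2 the highest, while the Rank-knockout libraries lay close together. Its log2 fold change was -0.59 ± 0.22 (95% interval -1.06 to -0.12, adjusted p = 0.0539 by edgeR). Over the 17 alternatives the value ran from -0.80 without WT replicate 3 to -0.31 without WT replicate 2, and 4 alternatives put it past the threshold.

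Autophagy was represented by 14 genes, of which 2 fell, Sqstm1 and Map1lc3a, with a median log2 fold change of -0.20. That count is at the background of 14.6% of all tested genes. Both belong to the group of ATG8 proteins and their cargo receptor, where all 6 genes had negative values with TMM (5 with library totals) and the median was -0.37. That group summed to 937 to 1095 CPM in WT against 661 to 845 CPM in Rank-knockout. Sqstm1 (ENSMUSG00000015837, GRCm38 chromosome 11, 50199366 to 50210827, minus strand) encodes p62, which links ubiquitinated cargo to ATG8 proteins and is itself degraded by autophagy. WT libraries had 89.1, 101, 92.2 and 80.5 CPM of Sqstm1 and Rank-knockout libraries 40.5, 57.0, 58.5 and 56.7 CPM. Rank-knockout replicate 1 was the lowest, and the lowest WT library was 1.38 times the highest Rank-knockout library. The log2 fold change was -0.78 ± 0.16 (adjusted p = 0.00208 by edgeR), or 1.72-fold lower.

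Map1lc3a and Map1lc3b encode LC3A and LC3B, ATG8 proteins that are joined to lipid on autophagic membranes. Map1lc3a (ENSMUSG00000027602, GRCm38 chromosome 2, 155276297 to 155278073, plus strand) was at 30.8, 44.9, 42.3 and 38.6 CPM in WT against 22.1, 22.9, 22.9 and 24.5 CPM in Rank-knockout. It fell by 0.77 ± 0.18 in log2 units (adjusted p = 0.00434 by edgeR), with no overlap. Map1lc3b (ENSMUSG00000031812, GRCm38 chromosome 8, 121590361 to 121598760, plus strand, overlapped by Gm20388) was at 64.4, 99.8, 79.2 and 73.9 CPM in WT against 71.7, 42.4, 66.1 and 61.4 CPM in Rank-knockout. Here Rank-knockout replicates 1 and 3 were above WT replicate 1. The log2 fold change of Map1lc3b was -0.40 ± 0.18 (95% interval -0.79 to -0.01, adjusted p = 0.107 by edgeR), and the difference between Map1lc3a and Map1lc3b was not tested.

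The GABARAP branch of the ATG8 family did not pass the threshold. Gabarap was at 734, 766, 791 and 678 CPM in WT against 474, 654, 611 and 657 CPM in Rank-knockout. All Rank-knockout libraries were lower, but Rank-knockout replicate 4 came close to WT replicate 4, and the log2 fold change was -0.31 ± 0.14 (adjusted p = 0.115 by edgeR). Gabarapl2 had -0.33, with an interval of -0.77 to 0.10. Gabarapl1 had -0.20, with an interval of -0.71 to 0.31, and its sign turned with library totals and without WT replicate 2.

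The machinery that starts autophagy and attaches ATG8 proteins to lipid had 0 called genes in either direction by edgeR, DESeq2 or limma-voom. Beside this, 30.4% of all tested genes passed in either direction by edgeR. None of the 3 initiation genes or the 5 conjugation genes was past an unadjusted p of 0.05 by edgeR. Becn1, a subunit of the lipid kinase complex that starts the membrane, was at 277, 268, 272 and 298 CPM in WT against 232, 247, 241 and 259 CPM in Rank-knockout. The genotypes did not overlap, yet the difference was small, with a log2 fold change of -0.19 (95% interval -0.45 to 0.08). Ulk1, the initiating kinase, had -0.18 and Wipi1, which binds the growing membrane, had 0.25. With library totals the values of Becn1 and Ulk1 turned positive, at 0.01 and 0.02. On that scale 1 conjugation gene, Atg16l1, was called higher by edgeR, beside 26.1% of all tested genes. At an unadjusted p under 0.05, 2 conjugation genes were higher.

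Atg3, the enzyme that transfers ATG8 proteins to lipid, was at 60.3, 38.5, 54.6 and 50.6 CPM in WT against 41.6, 45.4, 38.2 and 50.3 CPM in Rank-knockout. The genotypes overlapped, and the log2 fold change was -0.19 (95% interval -0.57 to 0.18). Atg5 and Atg12, which are joined to each other, had -0.26 and -0.12, and Atg16l1, which binds that conjugate, had 0.32. The activating enzyme Atg7 had 0.47, with an interval of -0.18 to 1.13, and was counted at 5 to 31 reads per library, too few for a precise value. Small RNA genes or gene models on the same strand overlap Atg5, Atg7 and Atg16l1.

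**Figure D3:**
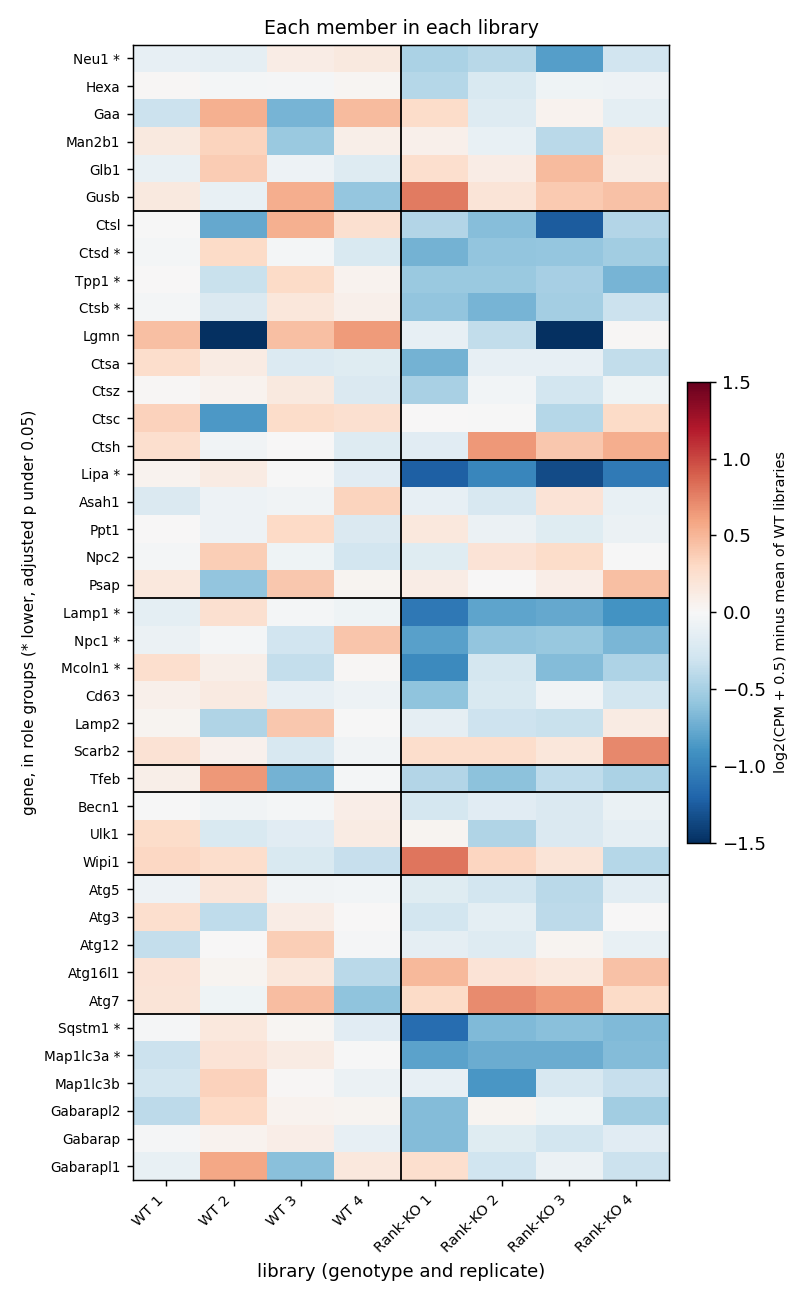
Log2(CPM + 0.5) of each of the 41 tested genes in each library minus the mean of the WT libraries (colour, blue lower and red higher), with genes in role groups and called genes starred. The rows of Lipa, Lamp1, Sqstm1 and Map1lc3a are blue in all 4 Rank-knockout libraries, while Lgmn, Ctsc and Ctsl are also blue in WT replicate 2.

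Within a genotype, the order of the libraries differed from gene to gene. WT replicate 2 was the highest WT library for 15 of the 41 genes and the lowest for 12. It was highest for Lamp1, Ctsd, Lipa, Sqstm1, Map1lc3a and Tfeb, and lowest for Ctsb, Ctsc, Ctsl, Lgmn, Tpp1 and Psap. Lgmn was at 2.53 CPM in that library and at 11.6 to 13.3 CPM in the other WT libraries, and at 1.80 CPM in Rank-knockout replicate 3 beside 6.38 to 8.44 CPM in the other Rank-knockout libraries. Among the Rank-knockout libraries, replicate 1 was the lowest for 16 genes, Lamp1, Ctsd, Npc1, Mcoln1, Map1lc3a and Sqstm1 among them, and replicate 4 for 3 genes.

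The wider lysosomal and autophagy gene lists, drawn up from general knowledge, held 127 further genes, of which 115 were tested. Of these, 21 were lower by edgeR, or 18.3% beside 14.6% of all tested genes, which is close to that background, and 0 were higher. DESeq2 found 20 lower and 0 higher, and 6 were higher by edgeR at an unadjusted p under 0.05. With library totals 10 were lower and 9 higher, so the calls in 1 direction depended on the scaling. Their median log2 fold change was -0.20, and 87 had a negative value with TMM but 57 with library totals. Subunits of the V-ATPase, the pump that acidifies lysosomes, were lower in 5 of 16, beside 14.6% of all tested genes, with a median of -0.31 (3 lower and a median of -0.11 with library totals). Atp6v1d had the smallest p of them, at 90.9 ± 1.36 CPM in WT against 60.0 ± 5.38 CPM in Rank-knockout (log2 fold change -0.60 ± 0.14, adjusted p = 0.00457 by edgeR). Atp6v0e was at 220 ± 23.9 and 147 ± 12.8 CPM (-0.58 ± 0.14, adjusted p = 0.00466 by edgeR).

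Other hydrolases and their cofactors were lower in 6 of 24, beside the same 14.6%, with a median of -0.24. With library totals 3 were lower and 2 higher, with a median of -0.04. Ctss, a cysteine protease best known from antigen-presenting cells, went from 270 ± 40.2 to 132 ± 7.73 CPM (log2 fold change -1.03 ± 0.14, adjusted p = 0.000203 by edgeR). The 13 macrophage and dendritic cell markers were all too low to test, with summed levels of 9.56 to 36.3 CPM in WT against 8.44 to 20.6 CPM in Rank-knockout, and Adgre1 and Fcgr1 had 0 counts in all 8 libraries.

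Other lysosomal membrane proteins were lower in 5 of 17, beside 14.6% of all tested genes, with a median of -0.40. With library totals 2 were lower and 1 higher, with a median of -0.19. Slc36a1, an amino acid transporter of lysosomes and of the absorptive surface, went from 439 ± 125 to 218 ± 11.6 CPM (log2 fold change -1.01 ± 0.18, adjusted p = 0.000932 by edgeR). Tpcn1, a channel of endosomes and lysosomes, went from 82.0 ± 5.74 to 52.2 ± 4.26 CPM (-0.65 ± 0.14, adjusted p = 0.00331 by edgeR). Other autophagy factors were lower in 5 of 30, close to the 14.6% of all tested genes, with a median of -0.32 (2 lower and a median of -0.12 with library totals). Optn, which like Sqstm1 is a cargo receptor, went from 290 ± 35.6 to 151 ± 10.9 CPM (-0.94 ± 0.14, adjusted p = 0.000303 by edgeR). Bnip3, a receptor on mitochondria, went from 14.1 ± 1.93 to 5.91 ± 0.562 CPM (-1.28 ± 0.24, adjusted p = 0.00137 by edgeR).

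Genes that deliver enzymes to lysosomes, such as receptors for mannose 6-phosphate, and genes of the mTORC1 complex and its control of TFEB-like factors had no called member with TMM. Of 10 delivery genes 0 passed in either direction by edgeR, DESeq2 or limma-voom, beside 30.4% of all tested genes by edgeR. Their median was 0.11, and at an unadjusted p under 0.05 edgeR had 3 higher and 1 lower. Of 18 tested mTORC1 and MiT/TFE genes 0 passed by the same tools, beside the same 30.4%. Their median was 0.07, with 1 higher by edgeR at an unadjusted p under 0.05. With library totals 3 genes of each of these lists were higher, beside 26.1% of all tested genes.

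**Figure D4:**
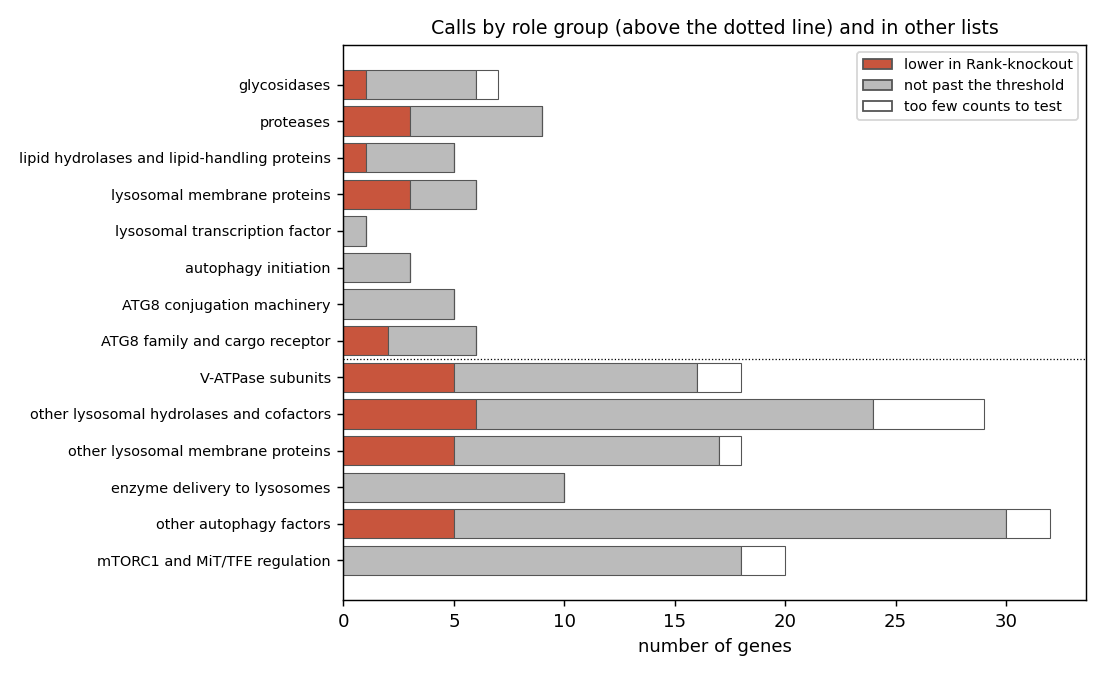
Number of genes (x axis) lower in Rank-knockout, not past the threshold, or with too few counts to test, for the 8 role groups above the dotted line and the 6 wider lists below it. Proteases and lysosomal membrane proteins each have 3 called genes, other hydrolases 6, and enzyme delivery and mTORC1 regulation 0.

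Over 17 alternatives for normalisation, filtering, testing, thinning, pairing and left-out libraries, Lipa, Lamp1, Sqstm1, Map1lc3a, Npc1 and Ctsd passed the threshold each time. Lamp1 ran from -0.96 to -0.69, Lipa from -1.24 to -0.96, Sqstm1 from -0.86 to -0.58, Map1lc3a from -0.89 to -0.57, Npc1 from -0.80 to -0.50 and Ctsd from -0.72 to -0.41 on the log2 scale. Ctsb missed it with library totals alone, while Mcoln1 missed it in 5, Neu1 in 6 and Tpp1 in 13 of the alternatives. Of the 31 genes not called, 6 passed in at least 1 alternative, Ctsl and Tfeb in the lower direction and Gusb, Ctsh, Scarb2 and Atg16l1 in the higher.

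**Figure D5:**
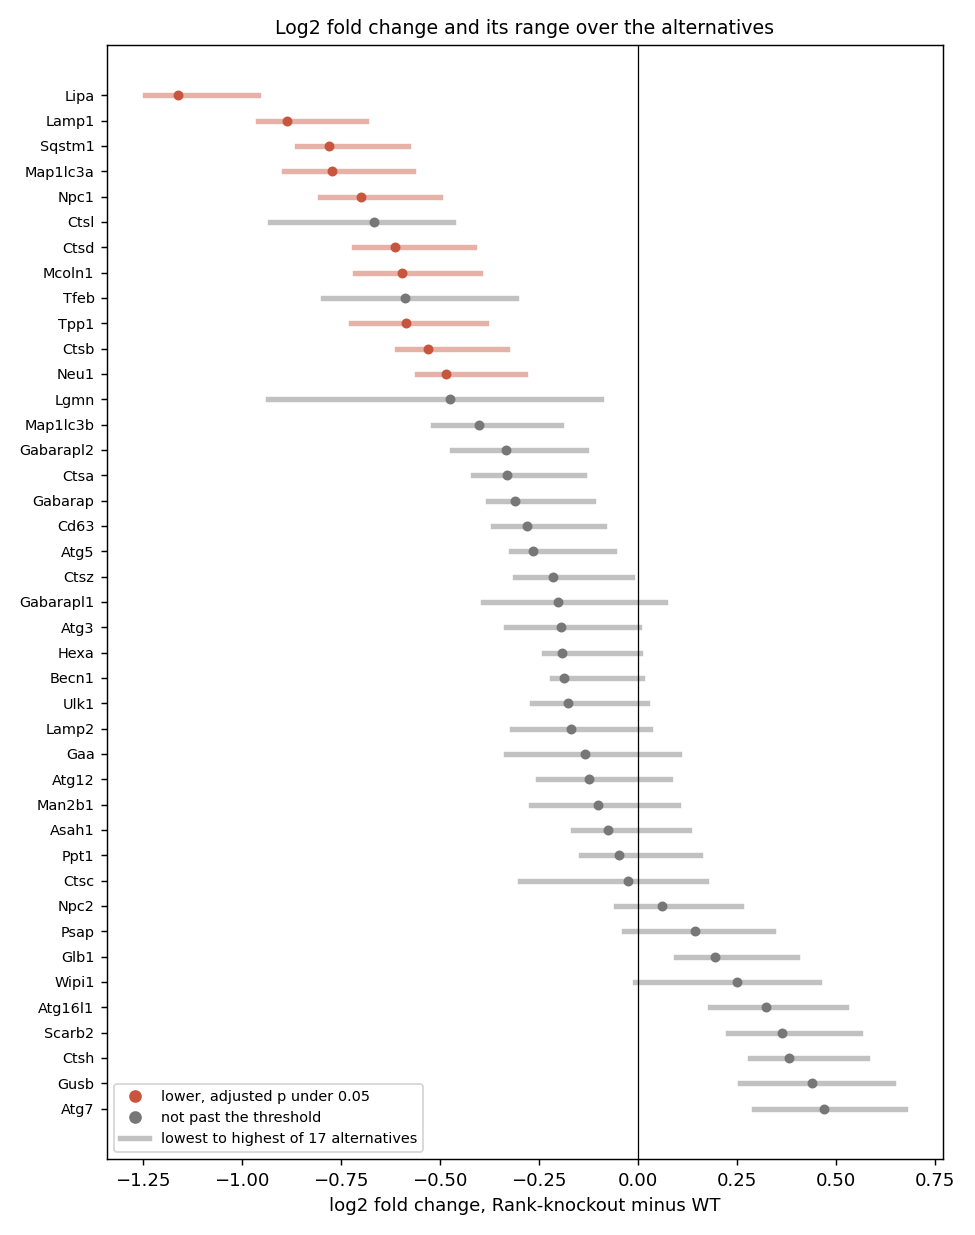
Log2 fold change of each tested gene (points, Rank-knockout minus WT) and its lowest to highest value over the 17 alternatives (bars). Bars of the 10 called genes stay below 0, from -0.28 for Neu1 down to -1.24 for Lipa at their ends, and 15 of the other genes have bars that cross 0.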

How the data were processed

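Libraries were prepared from total RNA with the Lexogen QuantSeq 3′ kit (forward version), in which each transcript gives about 1 tag, and were sequenced as single reads. The authors trimmed reads with BBDuk, used bowtie2 to discard reads from adapters, phiX, ribosomal DNA and the mitochondrial chromosome, mapped what was left to GRCm38/mm10 with STAR, and ran featureCounts in its sense-strand mode. The deposited table gives raw counts for each gene. No molecular identifiers were named, and PCR duplicates are therefore part of the counts. Levels per transcript length were not needed, because tags come from the 3′ end.

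Counts were tested with edgeR 4.0.16 (filterByExpr with a minimum count of 10, TMM, robust quasi-likelihood F-test, genotype as the only term) in R 4.3.3, with Benjamini-Hochberg adjustment over 9855 genes and a threshold of 0.05. Total counts per library were 1530781 to 4335653. SE came from the F statistic. The 95% intervals came from the test's total degrees of freedom, the residual ones plus those gained by sharing variance across genes. No pair of libraries of the same genotype agreed within sampling noise, the lowest chi-square per degree of freedom being 3.97. In simulated data with these library sizes, 1.52% of 1.5-fold changes (197 genes) and 72.8% of 2-fold changes (191 genes) were recovered among 9731 genes. Only those genes were changed, whereas 30.4% of tested genes passed in the real data. Fewer changed genes make the adjusted threshold stricter, so these shares do not give the recovery in the real data.

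Results were recomputed with DESeq2 1.42.0 (the study's tool), limma-voom 3.58.1, RLE scaling, unscaled library totals, totals that leave out the 50 most abundant genes, no low-count filter, a filter at 5 CPM on the mean, counts thinned to 1530781 per library, a term for the replicate number, and 8 fits without 1 of the libraries. The genes and lists were chosen with earlier results of these data known, and no list was given a test of its own. Values in every library are given for Lamp1, Tfeb, Sqstm1, Map1lc3b, the genes of each role group past the threshold and, where there was none, the gene with the highest mean CPM. Further genes shown in this way (Ctsl, Gabarap) were added after their values were seen. Of each wider list, the 2 called genes with the smallest p are named, except for 1 gene that is not reported here. Of the marker lists, T cell markers summed to 24.6 to 47.3 CPM in WT and 17.2 to 37.1 CPM in Rank-knockout with 0 of 4 tested called by edgeR, plasma cell markers to 97.2 to 121 and 96.8 to 135 CPM (nearly all from Sdc1, which epithelial cells also express, while Jchain had 3.41 to 7.86 and 0.450 to 2.90 CPM and was too low to test), and stromal markers to 10.7 to 19.5 and 6.29 to 18.4 CPM with Cdh5 at 0. Promoter windows came from RefSeq (GRCm38.p6) and overlapping genes from GENCODE M21.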

Additional observations from a re-analysis of the deposited data

Results flagged for a closer look

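In each genotype the 4 libraries of a tested gene were examined for a library that stands apart from the other 3, by Dixon's criterion. Of 82 sets of 4 libraries 6 were marked, where chance gives 4.10. WT replicate 2 accounted for 4 of them. Its Glb1 level was 35.7 CPM against 24.0 to 26.0 CPM in the other WT libraries, and its Atg5 level was 46.1 CPM against 38.4 to 39.3 CPM. In the other direction, Ctsc was at 15.5 CPM there against 33.9 to 36.3 CPM, and Lgmn at 2.53 CPM against 11.6 to 13.3 CPM. Rank-knockout replicate 4 had 156 CPM of Scarb2 against 107 to 114 CPM in the other Rank-knockout libraries. Rank-knockout replicate 1 had 40.5 CPM of Sqstm1 against 56.7 to 58.5 CPM. Without the library that stood apart, the log2 fold change went from -0.78 to -0.66 for Sqstm1, still past the threshold, and from 0.36 to 0.23 for Scarb2. It went from -0.48 to -0.94 for Lgmn, from 0.20 to 0.36 for Glb1, from -0.03 to -0.30 for Ctsc and from -0.26 to -0.19 for Atg5. These 5 genes did not pass the threshold with or without that library.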

How the results depend on the processing

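Scaling by library totals gave 2575 higher and 857 lower calls over all genes, 4 and 6 of the lysosome and autophagy genes, and 9 and 10 of the wider lists. Without the 50 most abundant genes in the library sizes the median of all genes shifted by 0.13, with 2171 higher and 1006 lower, 1 lysosome or autophagy gene higher and 4 of the wider lists higher. The wider lists had 3 higher genes with no filter, 2 after thinning and 4 with the replicate block. The block gave 10 lower and 0 higher lysosome and autophagy genes and changed no call among them. Correlations of the deviations of same-numbered libraries were mixed (0.05, 0.15, -0.14 and 0.32 for numbers 1 to 4 over 9855 genes, 4 of 8 libraries closest to their own number), and since not every pair was above 0.1 the numbers were not taken as pairs. Leaving out 1 library gave 1020 to 1723 genes higher over all genes (1020 without WT replicate 4), 7 to 11 lysosome and autophagy genes lower and 0 to 1 higher, and 16 to 28 of the wider lists lower and 0 to 4 higher.

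Signs turned with library totals for Gaa (0.076), Hexa (0.0068), Man2b1 (0.10), Ctsc (0.17), Asah1 (0.13), Ppt1 (0.16), Lamp2 (0.031), Ulk1 (0.024), Becn1 (0.012), Atg3 (0.0033), Atg12 (0.082) and Gabarapl1 (0.0062). They turned without the 50 most abundant genes for Gaa (0.0033), Man2b1 (0.030), Ctsc (0.10), Asah1 (0.058), Ppt1 (0.086) and Atg12 (0.012). Ctsc also turned with no filter (0.018), limma-voom (0.12) and thinning (0.0091), and Ppt1 with thinning (0.031). With 1 library left out, values ran from -0.33 to 0.10 for Gaa, -0.27 to 0.026 for Man2b1, -0.30 to 0.081 for Ctsc, -0.16 to 0.0071 for Asah1, -0.14 to 0.035 for Ppt1, -0.034 to 0.27 for Psap, -0.054 to 0.20 for Npc2, -0.0066 to 0.45 for Wipi1 and -0.39 to 0.068 for Gabarapl1. The cause was not tested for these, beyond the shift of all genes given with each scaling. All 15 genes were outside the threshold in the main setting. A gene that did not pass the threshold is not shown to be alike in the genotypes. Members of the wider lists were not examined singly under the alternatives.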
